A study of Mus musculus with 8 samples.

Results

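Small nucleolar RNAs (snoRNAs), small Cajal body RNAs (scaRNAs), and small nuclear RNAs (snRNAs) were followed in E14 mouse ESCs during the switch from serum to 2i. The 138 genes described here comprised 119 snoRNAs, 11 scaRNAs, and 8 snRNAs, out of 2315 counted identifiers that GENCODE M21 places in these biotypes and out of 37263 identifiers in all. They were selected on their measured level, as genes with at least 1 CPM (counts per 1000000, the count as a share of the library total) in at least 2 of the 8 libraries. Of the 2315 identifiers, 1839 had no count in any library and 338 had counts but stayed under this level. The second highest value of a gene decided its entry: Gm26265 entered with 1.00 CPM and AF357399 with 1.00 CPM, whereas Mir3068 stayed outside with 0.988 CPM and Snord91a with 0.912 CPM. Of the 138 genes, 77 reached 1 CPM in all 8 libraries. By symbol, the snoRNAs fell into 31 box C/D genes (Snord), 21 box H/ACA genes (Snora), and 67 genes with other symbols, which include Rnu3a, Scarna10, and many Gm numbers.

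The cells were E14, a feeder-independent ESC line of the 129/Ola strain, kept with LIF. Medium with serum was replaced by 2i, with PD0325901 against the kinase MEK and CHIR99021 against the kinase GSK3, and RNA was taken after 4, 16, 24, and 32 hr. The 2i group received no vitC and the vitC group received 17 µM vitC in the same medium, with 1 library for each time in each group and no serum library analysed here. All 8 libraries came from total RNA depleted of ribosomal RNA, so RNAs without a poly(A) tail could enter them. The RNA had been isolated on RNeasy columns, and how much of RNAs this short was kept there was not measured. Since each combination had 1 library, a change in the cells and a difference between preparations, such as the recovery of short RNAs, cannot be told apart for any single library. In these bulk samples, fewer cells that make an RNA and less of it per cell cannot be told apart either.

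Most snoRNAs guide chemical changes of ribosomal RNA. Box C/D snoRNAs direct 2′-O-methylation with fibrillarin, and box H/ACA snoRNAs direct the conversion of uridine to pseudouridine with dyskerin, while a few members of both families, such as U3, serve in the cleavage of the ribosomal RNA precursor instead. scaRNAs have the same boxes but gather in Cajal bodies, where they guide changes of spliceosomal snRNAs. The snRNAs are the RNA parts of the spliceosome. In mammals most snoRNAs are cut out of the introns of host genes, many of which encode ribosomal proteins, whereas U3 and most snRNAs have promoters of their own.

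The sequences that the results turn on are given here as annotated transcripts of GENCODE M21 (GRCm38), matched by gene identifier. The positions are those of GRCm38, which is not the build (NCBIM37) on which the reads had been mapped. The first 3 are shown with box C (TGATGA) and box D (CTGA in the last 15 bases) in capitals. Rnu3a is a U3 snoRNA gene at chr10:40258467-40258680 (+), with no host gene. Snord17 lies in an intron of Snx5 at chr2:144265979-144266216 (-). Gm23130 overlaps an exon of Rps12 at chr10:23786470-23786543 (-).
Rnu3a: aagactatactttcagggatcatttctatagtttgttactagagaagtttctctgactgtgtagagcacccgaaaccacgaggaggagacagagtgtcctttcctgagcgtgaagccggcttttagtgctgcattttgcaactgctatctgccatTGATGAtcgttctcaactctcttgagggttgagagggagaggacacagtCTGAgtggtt
Snord17: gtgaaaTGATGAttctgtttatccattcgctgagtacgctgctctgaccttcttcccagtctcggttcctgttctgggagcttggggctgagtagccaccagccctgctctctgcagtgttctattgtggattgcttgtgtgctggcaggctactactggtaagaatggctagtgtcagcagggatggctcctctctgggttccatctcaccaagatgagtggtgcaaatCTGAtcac
Gm23130: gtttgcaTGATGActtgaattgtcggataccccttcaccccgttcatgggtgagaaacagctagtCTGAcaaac
The next 3 are shown with the ACA of their last 8 bases in capitals. Snora33 overlaps another Rps12 exon at chr10:23785347-23785475 (-), Snora73b lies in an intron of Rcc1 at chr4:132352322-132352526 (-), and Gm26448 lies in an intron of Rpsa at chr9:120129351-120129553 (+). Over an alignment of 205 positions, Snora73b and Gm26448 were 87.8% identical.
Snora33: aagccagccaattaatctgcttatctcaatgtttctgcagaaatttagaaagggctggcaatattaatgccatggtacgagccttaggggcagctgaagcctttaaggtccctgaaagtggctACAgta
Snora73b: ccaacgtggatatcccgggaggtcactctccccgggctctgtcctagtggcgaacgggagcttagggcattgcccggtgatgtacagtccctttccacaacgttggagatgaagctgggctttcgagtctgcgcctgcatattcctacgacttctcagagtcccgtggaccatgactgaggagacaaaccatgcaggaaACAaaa
Gm26448: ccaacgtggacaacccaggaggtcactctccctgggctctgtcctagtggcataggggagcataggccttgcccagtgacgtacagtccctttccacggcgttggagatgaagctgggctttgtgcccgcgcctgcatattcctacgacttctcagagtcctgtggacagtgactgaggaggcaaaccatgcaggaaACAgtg
The last 3 are snRNAs. Gm22710, at chr1:118459141-118459265 (-), overlaps an exon of 2900060B14Rik and lies opposite Clasp1. Rnu2-10, at chr11:101658238-101658428 (+), and Gm23444, at chr11:83271498-83271688 (+), are both 191 bases long and differ by 1 base, G109C, counted from the 5′ end of Rnu2-10 and shown in capitals.
Gm22710: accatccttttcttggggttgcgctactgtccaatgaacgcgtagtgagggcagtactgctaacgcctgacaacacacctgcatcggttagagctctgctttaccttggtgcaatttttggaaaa
Rnu2-10: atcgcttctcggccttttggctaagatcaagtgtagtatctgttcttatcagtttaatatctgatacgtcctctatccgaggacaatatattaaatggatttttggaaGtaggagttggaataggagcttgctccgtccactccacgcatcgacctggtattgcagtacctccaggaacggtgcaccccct
Gm23444: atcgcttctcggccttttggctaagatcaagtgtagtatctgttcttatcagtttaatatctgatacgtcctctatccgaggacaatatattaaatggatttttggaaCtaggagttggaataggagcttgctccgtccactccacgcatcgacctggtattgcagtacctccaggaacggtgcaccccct

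Among the 31 box C/D genes, 22 held both TGATGA anywhere and CTGA in the last 15 bases, as did 68.1% of the 72 counted Snord genes. All 21 box H/ACA genes held ACA in the last 8 bases, as did 94.9% of the 39 counted Snora genes. Of the 67 other snoRNAs, 19 held both C/D motifs and 46 held the final ACA, against 7.03% and 55.0% of the 1081 counted genes with such symbols. Searches covered the sense strand only, CTGA and TGATGA can share the letters TGA, and a match is a description of these letters only. Of the 138 genes, 48 were 100 bases or shorter. Beside an annotated host on the same strand, 83 lay inside an intron, 38 overlapped a host exon, and 17 had no host. Reads of the host and of the small RNA cannot be told apart where an exon overlaps. In total RNA, reads of unspliced host RNA can also fall on the 83 genes inside introns, and these were not separated. At least one 50-base window of 35 genes also occurred in another annotated gene, and all windows of Rnu2-10 and of Gm23444 did, so that the split of reads between such copies is uncertain.

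The library totals were 12940716 to 18434932 counts in 2i and 4753528 to 13157570 with vitC. A count of 3, taken as the smallest that can be read, equalled 0.163 to 0.631 CPM, and intervals given here are Wilson 95% intervals that cover counting error only. The sample labels give no lane, so it was read from a digit in the names under which the counts had been deposited. By this reading, the 4 and 24 hr libraries had run on lane 8 and the 16 and 32 hr libraries on lane 7. Lars2, Gm23935, and ENSMUSG00000093077 together took 0.0113% to 0.564% of counts in 4 libraries, but 5.92% in 2i at 24 hr and 7.11%, 6.37%, and 4.21% with vitC at 16, 24, and 32 hr. Mitochondrial genes took 0.469% to 1.50%, and protein-coding genes 84.7% to 91.0%. All 8 ESC markers were counted in every library, at summed levels of 1865 to 2339 CPM. Of the 6 fibroblast markers 5 were counted in every library (94.9 to 661 CPM summed), and the primitive endoderm and trophoblast lists summed to at most 6.73 and 18.4 CPM.

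In the order of 4, 16, 24, and 32 hr, which is kept for all lists of levels here, the 138 genes together took 1929, 3216, 2886, and 1551 CPM in 2i. With vitC the same sums were 1818, 1811, 1678, and 1989 CPM. The 2i libraries at 16 and 24 hr thus stood above all others, and the 2i library at 32 hr was the lowest. The snRNAs changed most in proportion, but this class held only 8 of the 1086 counted snRNA genes. These were the U2-related genes, Rnu11, Rnu12, Gm22710, and Gm25541, and they do not stand for all spliceosomal snRNAs. The sums of these 8 genes in 2i were 32.1, 133, 133, and 42.3 CPM, with an interval of 29.5 to 34.8 for the first library and of 128 to 139 for the second. With vitC it was 41.3, 62.1, 69.2, and 56.5 CPM, so that 16 and 24 hr were 1.51 and 1.68 times the 4 hr level, against 4.16 and 4.16 times in 2i.

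Box C/D snoRNAs summed to 202, 609, 412, and 174 CPM in 2i and to 224, 172, 163, and 242 CPM with vitC. Their sum at 16 hr in 2i was 3.02 times that at 4 hr, but 1.61 times without Snord17, the most abundant of them. Box H/ACA snoRNAs summed to 321, 608, 530, and 246 CPM in 2i and to 303, 251, 207, and 371 CPM with vitC. scaRNAs had the smallest ratio of 16 to 4 hr in 2i (1.25), with 465, 581, 529, and 379 CPM in 2i and 390, 379, 332, and 468 CPM with vitC. The snoRNAs with other symbols summed to 908, 1285, 1282, and 708 CPM in 2i and to 859, 947, 906, and 851 CPM with vitC. That rise from 4 to 16 hr in 2i was 1.41 times with Scarna10 and 2.13 times without it. In each of the 5 classes the intervals of both 2i libraries at 16 and 24 hr lay above those of the other 6 libraries. These shares were described and not tested.

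**Figure D1:**
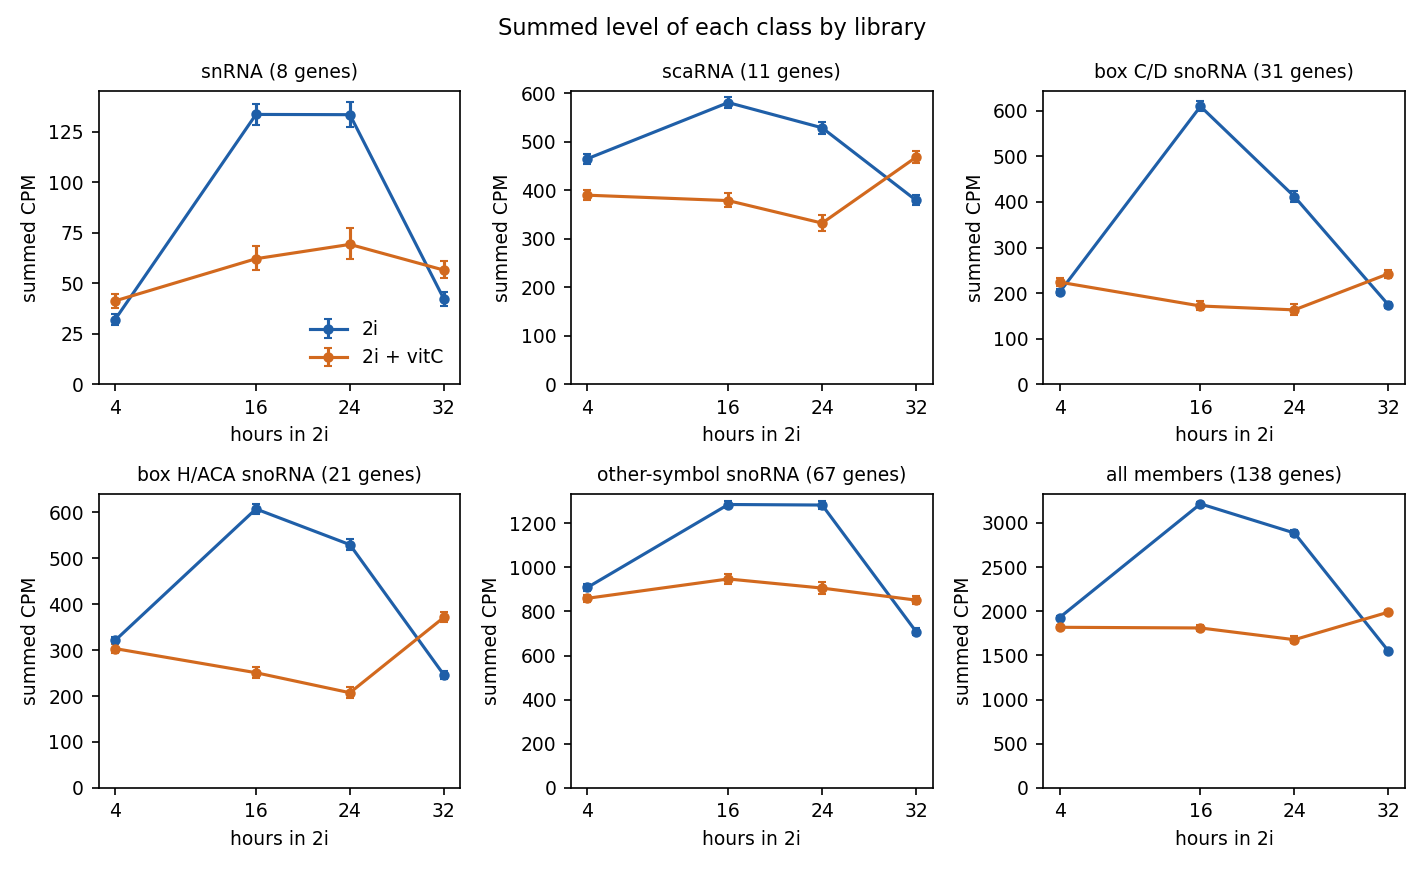
Summed CPM of each class of small RNA (y axis, from 0) against hours in 2i (x axis), without vitC in blue and with vitC in orange, 1 library per point, with Wilson 95% intervals as bars. In 2i all classes were highest at 16 or 24 hr and fell by 32 hr, and in each class the 2i points at 16 and 24 hr lie above all vitC points.

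Recovery of RNAs of different lengths was not measured, so a ranking of genes by level need not be that in the cells. Per length, Scarna10 had the highest mean level over the 8 libraries with 1495 RPKM (CPM per kilobase of transcript), followed by Snora73b with 738, Rnu3a with 688, Snord17 with 618, and Snora78 with 464 RPKM. Scarna10, annotated as a snoRNA and overlapping an exon of Ncapd2, was also the most even of them, at 525, 468, 420, and 375 CPM in 2i and at 501, 562, 568, and 467 CPM with vitC. Its level in 2i was lower at 32 hr than at 4 hr, and the additive model described below gave it no call at any time (log2 fold change at 32 hr −0.30 ± 0.15 SE, edgeR adjusted p = 0.169).

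Of the abundant snoRNAs, Rnu3a, a U3 gene, had 77.9, 295, 377, and 61.4 CPM in 2i and 48.3, 129, 113, and 76.0 CPM with vitC. It was above its 4 hr level at 16 and 24 hr in both groups, and at 32 hr it was below that level in 2i and above it with vitC. Snora73b, a U17 RNA that takes part in making 18S ribosomal RNA, had 130, 268, 247, and 134 CPM in 2i and 103, 87.8, 66.7, and 173 CPM with vitC. Its highest library was thus 2i at 16 hr, while its lowest was vitC at 24 hr. Snord13, the U13 RNA, which has no host gene, had 8.16, 37.8, 20.9, and 18.9 CPM in 2i and 6.76, 10.04, 11.8, and 19.6 CPM with vitC, with both 4 hr libraries the lowest of the 8.

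Among the other abundant snoRNAs, Snord17 had 88.5, 426, 239, and 51.7 CPM in 2i and 119, 67.6, 66.5, and 118 CPM with vitC. The 2 groups moved in opposite directions between 4 and 16 hr. Snora78, inside an intron of Snhg9 and opposite Rps2, had 57.6, 86.5, 77.1, and 19.9 CPM in 2i and 67.3, 50.9, 47.1, and 68.9 CPM with vitC. Snora74a, Snora57, Gm26448, and Gm25835 showed the same order, with their 2 highest libraries in 2i at 16 and 24 hr; Snora57 ranged from 8.84 CPM with vitC at 24 hr to 69.3 CPM in 2i at 16 hr. The short Snord49b (72 bases) did not share it, with 13.2, 12.3, 20.7, and 11.8 CPM in 2i and 9.12, 12.9, 7.99, and 14.5 CPM with vitC.

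Of the scaRNAs, Scarna2, which has no host gene, had 130, 134, 115, and 126 CPM in 2i and 107, 76.6, 53.6, and 135 CPM with vitC. It differed little over time in 2i and was lowest in the vitC libraries at 16 and 24 hr. Scarna6 and Gm25395 both lie in introns of Atg16l1, yet in 2i at 24 hr Scarna6 was at 52.9 CPM, its lowest value, and Gm25395 at 139 CPM, its highest. Scarna13, in an intron of Snhg10, ranged from 41.7 CPM with vitC at 24 hr to 106 CPM in 2i at 16 hr.

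The snRNA genes included 4 U2-related genes of 191 bases, and U2 pairs with the branch point of introns. Rnu2-10 had 4.31, 13.8, 23.1, and 1.40 CPM in 2i and 6.92, 7.03, 6.73, and 6.22 CPM with vitC. Its near copy Gm23444 had 5.63, 18.2, 37.1, and 2.94 CPM in 2i and 14.2, 14.1, 18.1, and 10.7 CPM with vitC. Both rose and fell in 2i, with the split of reads between these copies uncertain. With vitC, Rnu2-10 stayed between 6.22 and 7.03 CPM, and Gm23444 was highest at 24 hr and lowest at 32 hr. Gm22973 differed from Rnu2-10 at 9 of 191 positions and ranged from 8.59 to 12.8 CPM outside the 2i libraries at 16 and 24 hr, where it had 33.4 and 31.8 CPM. Gm26316 differed at 1 position and reached 7.21 and 5.33 CPM there, against 1.03 to 1.84 CPM elsewhere.

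Among the other snRNAs, Gm22710 was the most abundant, with 6.15, 51.4, 24.8, and 22.4 CPM in 2i and 7.22, 21.7, 23.4, and 20.2 CPM with vitC. Its 4 hr libraries were the lowest in both groups, and no later library overlapped them. Rnu11 (U11) and Rnu12 (U12) belong to the minor spliceosome, which removes a rare class of introns. Rnu11 had 3.91, 6.78, 8.89, and 3.90 CPM in 2i and 2.43, 4.45, 8.63, and 4.71 CPM with vitC, highest at 24 hr in both groups. Rnu12 lay between 0.38 and 1.68 CPM, and Gm25541 between 0 and 1.90 CPM, both too low to order the libraries. Rnu73b, a snoRNA of 71 bases in Rps3a1, had 3.62 CPM in 2i at 4 hr and 0.588 to 1.72 CPM elsewhere.

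**Figure D2:**
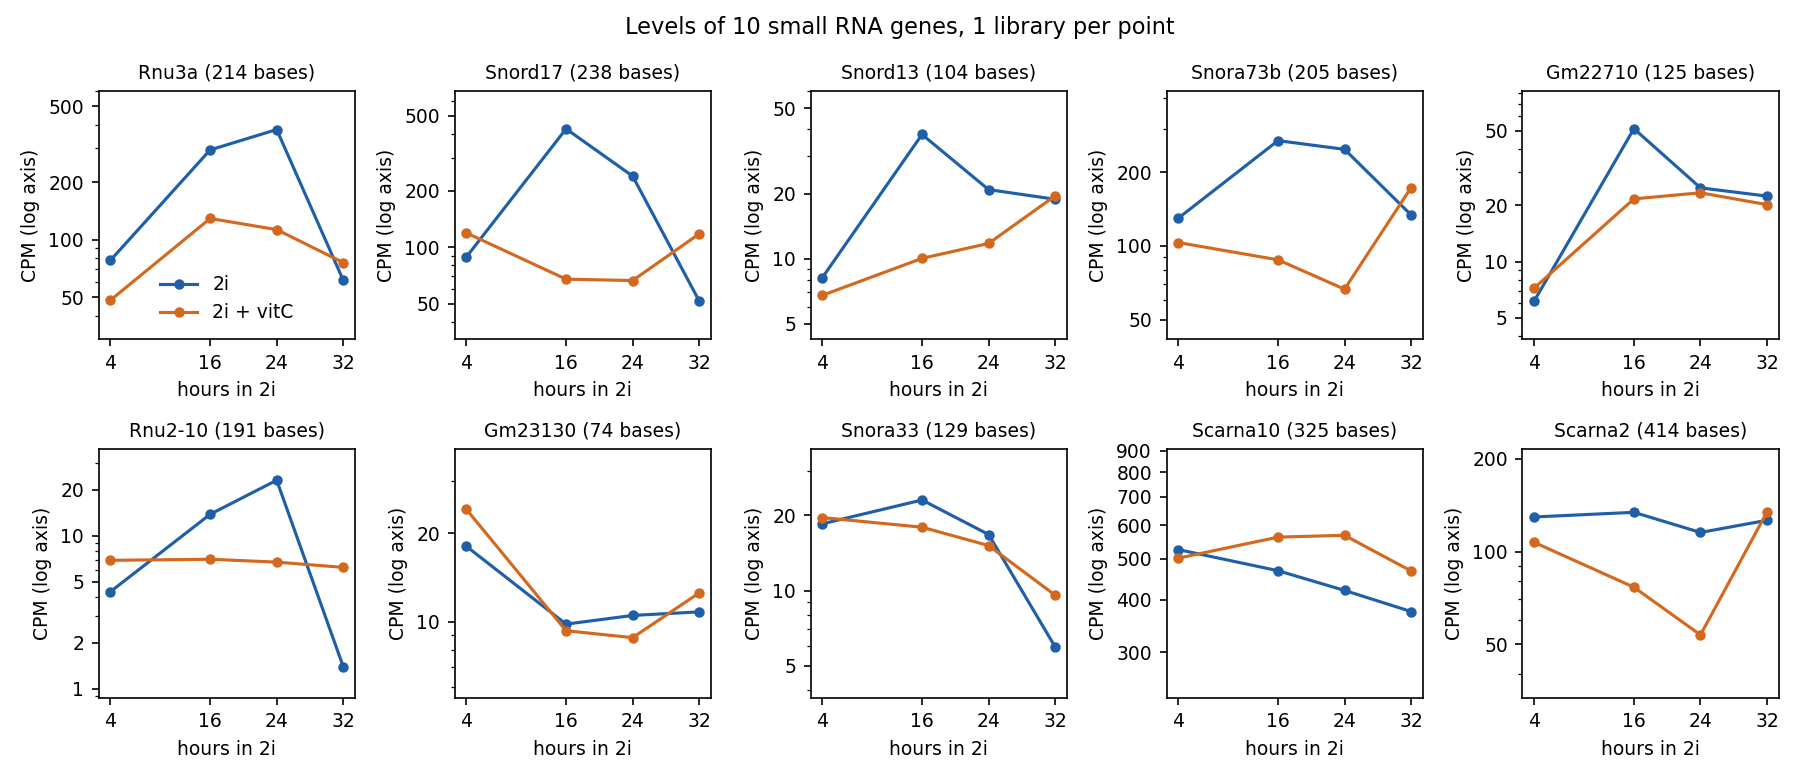
CPM on a log y axis against hours in 2i for 10 small RNA genes, without vitC in blue and with vitC in orange, 1 library per point. Rnu3a, Snord17, Snora73b, and Rnu2-10 were highest in 2i at 16 and 24 hr, Gm22710 was lowest at 4 hr in both groups, Gm23130 fell from 4 to 16 hr in both, and Scarna10 stayed between 375 and 568 CPM.

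Time was tested with edgeR's quasi-likelihood model with additive effects of time and treatment, fitted to all 8 libraries and 14931 genes. With 1 library per combination, the 3 residual degrees of freedom measure how far both groups deviate from parallel courses; no replicate cultures enter the error. Values are log2 fold changes ± SE, with p-values adjusted by Benjamini-Hochberg over all 14931 genes. Over the 4 comparisons between times, 18 of the 138 genes passed a threshold of 0.05 at least once, 11 of them upward and 7 downward. At 32 hr against 4 hr alone, 13.5% of all genes tested rose and 11.8% fell. In each comparison with 4 hr, the 138 genes were called less often than all genes, in both directions. At 32 hr against 16 hr 1 of the 138 fell, beside 0.248% of all genes. The share of all genes called in at least 1 of the 4 comparisons is not given here, so the 18 genes have no like background. Of the 11 that rose, 6 had no host gene, compared with 17 of all 138 genes, and 9 were longer than 100 bases, compared with 90 of 138. Of the 7 that fell, 6 overlapped a host exon, compared with 38 of 138, and the part of the host's reads in these falls was not tested. Of the 30 calls, 6 were kept whichever library was left out: those of Gm22710 at 16, 24, and 32 hr, of Rnu3a at 16 and 24 hr, and of Gm22442 at 24 hr. The calls of Snord104 at 16 hr and Snord13 at 24 hr were kept in 2 of the 8 fits that left out a library, and those of Gm23201 at 24 hr and of Gm23442 and Snora24 at 32 hr in 3 of 8. These fits had fewer residual degrees of freedom than that to all 8 libraries.

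At 16 hr against 4 hr, which also compares lanes, 7 of the 138 genes rose and 1 fell, while 9.16% of all genes tested rose and 7.24% fell. The share of genes past the threshold was thus below that of all genes in both directions. The median log2 fold change over the 138 genes was 0.41, against 0.01 over all genes, and 88 of the 138 were positive. Gm22710 rose by 2.39 ± 0.30 (edgeR adjusted p = 0.00049), Rnu3a by 1.67 ± 0.32 (edgeR adjusted p = 0.00577), and Snord13 by 1.54 ± 0.36 (edgeR adjusted p = 0.0135). Snord35a, a box C/D snoRNA from an intron of Rpl13a, rose by 1.31 ± 0.26 (edgeR adjusted p = 0.00626). Its levels were 4.94, 14.1, 12.5, and 7.86 CPM in 2i and 4.56, 9.90, 9.05, and 6.98 CPM with vitC, with both 4 hr libraries the lowest. Snord104, without a host, rose by 1.35 ± 0.40 (edgeR adjusted p = 0.0370), and Gm25835 and Snord118 (the U8 RNA, needed to cut the ribosomal RNA precursor) also passed. Gm23130 fell by 1.14 on the log2 scale (SE 0.23, edgeR adjusted p = 0.00771), from 18.0 to 9.82 CPM in 2i and from 24.1 to 9.33 CPM with vitC. Of the 8 calls, 3 were kept without the 2i library at 16 hr, 4 without either of the 4 hr libraries, and 7 without the vitC library at 16 hr, where 13 genes passed in all.

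Within lane 8, at 24 hr against 4 hr, 9 of the 138 genes rose and 2 fell, beside 11.5% and 8.98% of all genes tested. The median was 0.26 against 0.01 over all genes. Gm22442, a scaRNA in an intron of the chromatin remodeler gene Chd3, rose by 1.86 ± 0.36 (edgeR adjusted p = 0.00437). It had 6.78, 9.17, 19.2, and 9.63 CPM in 2i and 2.28, 6.89, 12.6, and 12.02 CPM with vitC. Gm22710 rose by 1.86 ± 0.30, Rnu3a by 1.86 ± 0.33, Gm23444 by 1.68 ± 0.50, and Rnu11 by 1.49 ± 0.35 (edgeR adjusted p = 0.00146, 0.00239, 0.0324, and 0.0108). As all 50-base windows of Gm23444 also occur in another annotated gene, its call may not be particular to that gene. Snord118, Snord35a, Snord13, and Gm25835 passed again. Gm23130 fell by 1.06 on the log2 scale (SE 0.24, edgeR adjusted p = 0.00905), and Gm23201, which overlaps an exon of Zfas1, fell by 0.98 (SE 0.31, edgeR adjusted p = 0.0424). Of the 11 calls, 4 were kept without the 2i library at 24 hr (5 genes passed in all), 5 without the vitC library at 4 hr, 6 without the vitC library at 24 hr (12 in all), and 7 without the 2i library at 4 hr (10 in all).

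At 32 hr against 4 hr, again across lanes, 4 of the 138 genes rose and 6 fell, beside 13.5% and 11.8% of all genes tested. The median was −0.04 against 0.00 over all genes. Gm22710, Snord13, and Gm22442 were higher by 1.67 ± 0.29, 1.41 ± 0.35, and 1.34 ± 0.36 (edgeR adjusted p = 0.00167, 0.0122, and 0.0182), and Gm23442, in an intron of Prrc2a, by 1.19 ± 0.40 (edgeR adjusted p = 0.0452). Snora33 fell by 1.30 on the log2 scale (SE 0.25, edgeR adjusted p = 0.00308). Its 32 hr libraries had 5.95 CPM in 2i and 9.59 CPM with vitC, and the other 6 had 15.1 to 23.1 CPM, so that the 32 hr libraries did not overlap the rest. Snora24, which overlaps an exon of Snhg8, fell by 1.01 (SE 0.34), Gm23130 by 0.84 (SE 0.23), and Gm23455, which overlaps an exon of Taf1d, by 0.76 (SE 0.26; edgeR adjusted p = 0.0447, 0.0180, and 0.0479). Gm22620, also at Taf1d, and Gm26457, in an intron of Eef1b2, made up the 6 that fell. Of the 10 calls, 3 were kept without either of the 32 hr libraries and 4 without the vitC library at 4 hr, and in each of these fits 5 genes passed in all.

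Within lane 7, at 32 hr against 16 hr, none of the 138 genes rose and Snora33 fell by 1.40 on the log2 scale (SE 0.26, edgeR adjusted p = 0.0343), beside 0.335% of all genes that rose and 0.248% that fell. The median was −0.47 against −0.00 over all genes, and 107 of the 138 values were negative. At an unadjusted p under 0.05 there were 18 of the 138, beside 14.3% of all genes, so that this count was near the background. The call of Snora33 was lost without the 2i library at 16 or 32 hr and without the vitC library at 32 hr. With no filter on low counts 12 of the 138 fell and none rose, beside 2.54% of all genes that passed in either direction under that setting.

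In the test of vitC against 2i with time as a block, none of the 138 genes passed, beside 0.107% of all genes that were higher and 0.0603% that were lower. At an unadjusted p under 0.05 there were 32 of the 138, beside 13.8% of all genes. DESeq2 called none of the 138, beside 2.00% of all genes, and without a filter on low counts 19 were lower, beside 2.97% of all genes that passed in either direction. The median log2 fold change was −0.36 against −0.02 over all genes, with 105 of 138 negative. Gm25835 had the value −1.04 ± 0.23 (edgeR adjusted p = 0.0742) and Rnu3a −0.84 ± 0.23 (edgeR adjusted p = 0.122). Each vitC library shared its lane with the 2i library of the same time. Over the 138 genes the median log2 ratios of vitC to 2i, by time, were −0.13, −0.77, −0.79, and 0.22, while the median over all genes lay between −0.02 and 0.01. At all 4 times 26 of the 138 genes were lower with vitC and 2 were higher, beside 10.7% and 11.0% of all genes tested. A linear change of the vitC effect with hours was called by edgeR for none of the 138 genes (7 at an unadjusted p under 0.05) and for none of all genes tested (431, or 2.89%, at that level). DESeq2 and the fit without a filter also called none of the 138 for this change, beside 0.00670% and 0.0216% of all genes.

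The lower values with vitC at 16 and 24 hr were in the libraries whose 2i partners stood high. Both the 2i library at 16 hr and that at 24 hr exceeded the other 6 libraries in 50 of the 138 genes, on the scale of TMM-adjusted CPM. The same held for 2.86% of all genes tested, and for 39 of the 77 genes at 1 CPM or more in all 8 libraries, where the share over all genes at that level was 2.82%. This order was chosen after the values were seen, so that it is described and not tested. It held in 5 of 8 snRNAs, 5 of 11 scaRNAs, 9 of 31 box C/D, 10 of 21 box H/ACA, and 21 of 67 other snoRNAs. Only 2 of the 50 had been under 1 CPM in all of the other 6 libraries. Other scalings gave 49 to 52 genes. It held in 9 of the 17 genes without a host, in 35 of the 83 inside introns, and in 6 of the 38 that overlap a host exon.

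The order was more frequent among longer RNAs. It held in 46 of the 90 genes longer than 100 bases and in 4 of the 48 at or under 100 bases. By the difference between the mean log2 CPM at 16 and 24 hr and that at 4 and 32 hr, the median in 2i was 0.28 for the 32 genes of up to 80 bases, 0.35 for the 19 genes of 81 to 120 bases, 0.77 for the 56 genes of 121 to 140 bases, 1.30 for the 19 genes of 141 to 200 bases, and 0.48 for the 12 longer ones, so that it did not climb further in the longest RNAs. With vitC the medians of these groups were −0.36, 0.03, −0.07, −0.04, and −0.44. Over all 138 genes the medians were 0.69 in 2i and −0.11 with vitC, against 0.02 and −0.01 over all genes tested, and 114 of the 138 had the larger value in 2i. Box type and length go together here, since the snoRNAs with a final ACA and no full C/D pair had a median length of 133 bases and those with the C/D pair and no final ACA 78.5 bases.

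**Figure D3:**
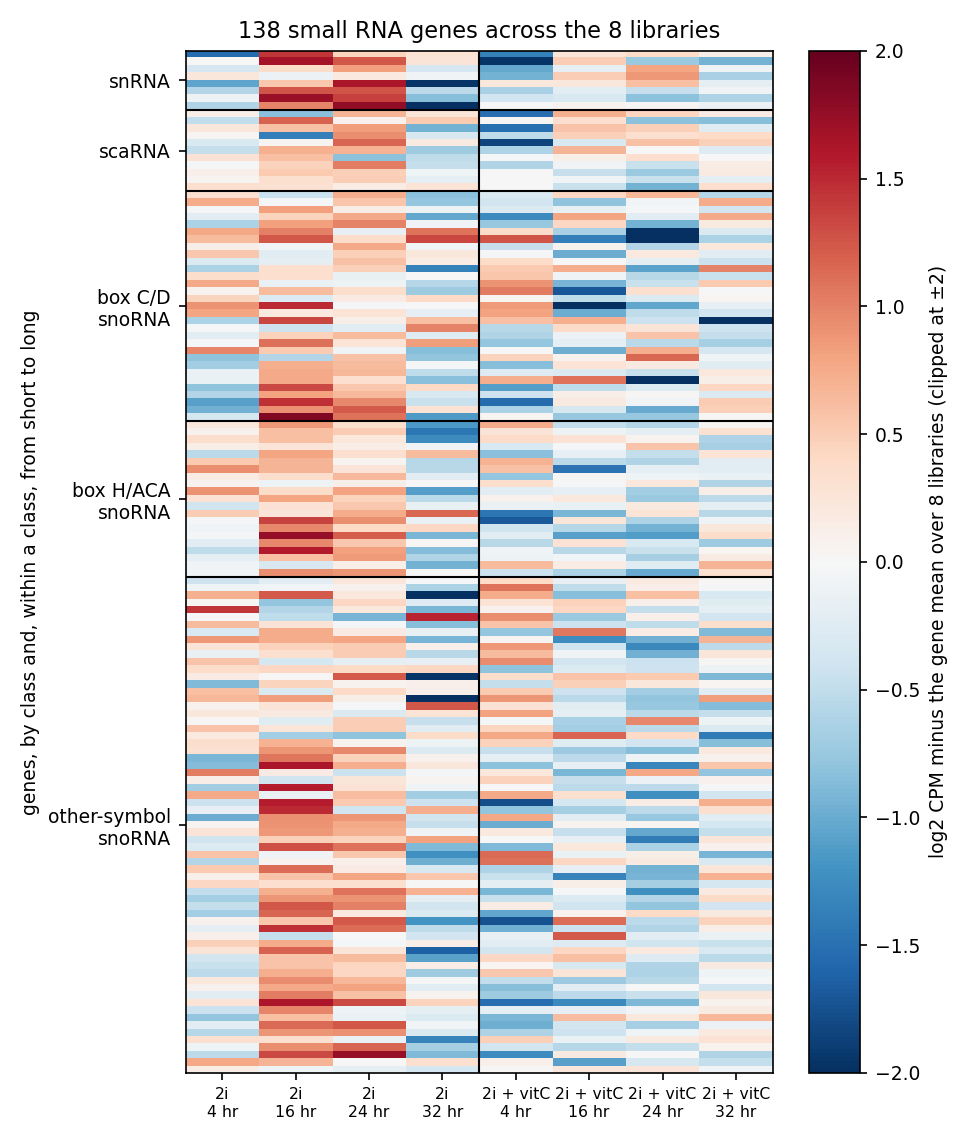
Each row is 1 of the 138 genes, ordered by class and, within a class, from short to long, and each column is 1 library. Colour gives log2 CPM minus the gene's mean over the 8 libraries, clipped at 2 above and below. The 2i columns at 16 and 24 hr are red over most rows, whereas the vitC columns at 16 and 24 hr are mostly blue.

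**Figure D4:**
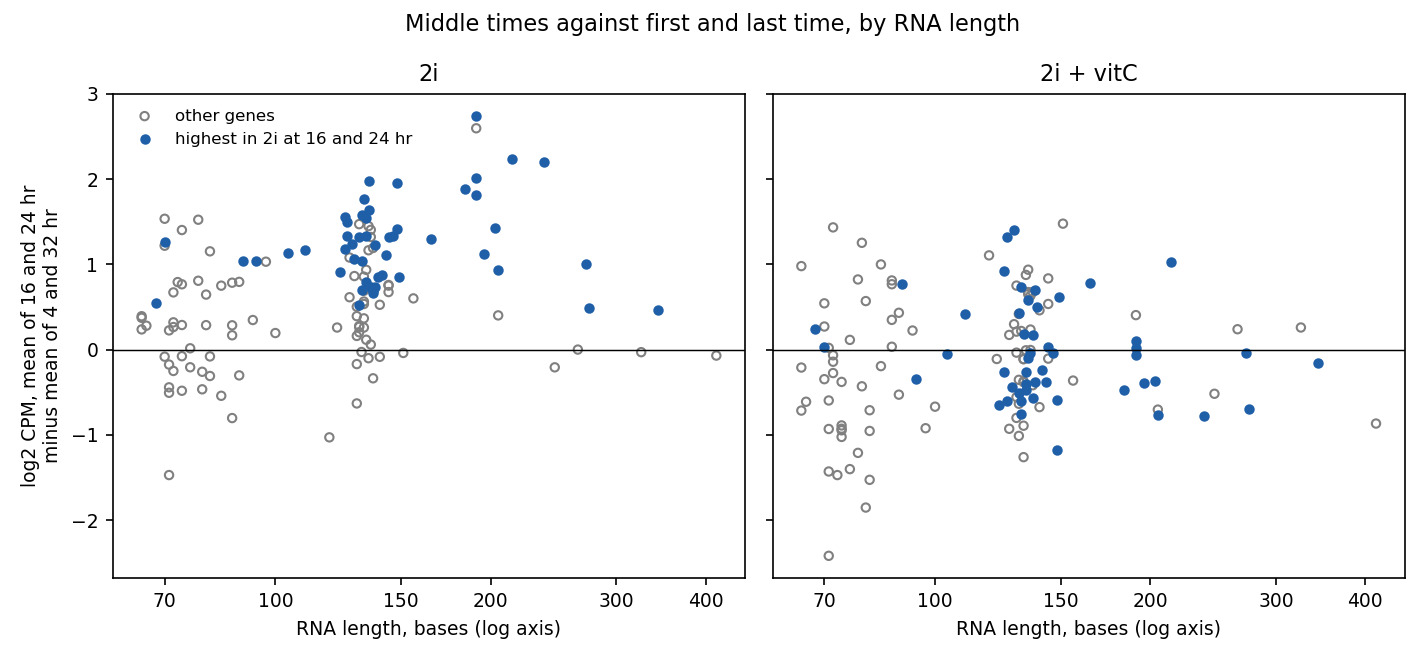
The y axis gives the mean log2 CPM at 16 and 24 hr minus the mean at 4 and 32 hr, and the log x axis RNA length in bases, with 1 point per gene, without vitC on the left and with vitC on the right. Filled points are the 50 genes highest in both 2i libraries at 16 and 24 hr, whose filling follows from that choice. In 2i the median was 0.28 up to 80 bases and 1.30 at 141 to 200 bases, and with vitC the points lie around −0.11.

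The measured composition of both libraries differed. The 2i library at 16 hr had the largest total (18434932), 0.206% of counts on Lars2 and its partner features, and lane 7. The 2i library at 24 hr had 12940716 counts, 5.92% on those features, and lane 8. Their TMM factors were 1.03 and 0.987, and the mitochondrial shares 0.668% and 0.554%. Counts on misc_RNA and ribozyme genes together made up 8.47%, 8.27%, 6.20%, and 11.4% in 2i and 5.29%, 5.26%, 4.71%, and 8.08% with vitC. Outside the 3 biotypes, the order held in 5 of 22 tested misc_RNA genes, namely Rny1, Rny3, Vaultrc5, Rn7s6, and Gm25687. It held in none of 35 miRNA genes and none of 4 ribozyme genes. By length, it held in none of 30 other genes of 100 bases or shorter and in 14 of 170 other genes of 101 to 400 bases. Whether the recovery of short RNAs differed between the libraries was not tested.

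As a model fitted after the values were seen, the vitC effect at 16 and 24 hr was compared with that at 4 and 32 hr. With 2 residual degrees of freedom, edgeR called 16 of the 138 genes lower and none higher, beside 0.321% and 0.355% of all genes tested. DESeq2 called 12 of the 138, beside 0.643% of all genes in either direction. The median was −0.85 against −0.02 over all genes. Snora57 had −3.16 ± 0.39, Snord17 −3.00 ± 0.26, Rnu2-10 −2.57 ± 0.48, and Snora73b −1.70 ± 0.22 on the log2 scale (edgeR adjusted p = 0.00049, 2.54e-05, 0.0137, and 0.00076). All 16 were longer than 100 bases. Without the 2i library at 32 hr none of the 138 was called, without the vitC library at 32 hr 2 were, and without the 2i library at 4 hr 5 were. As the contrast was built from the order it tests, these p-values do not support it independently.

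Small RNAs were also set beside the genes that hold them. Of 88 hosts, 79 were tested, and they held 111 of the 138 genes. At 16 hr against 4 hr the median over the 79 hosts was −0.29, against 0.01 over all genes tested. Of these hosts 3 rose and 19 fell, beside 9.16% and 7.24% of all genes tested. In that comparison 82 of the 111 small RNAs had a higher value than their host. At 24 hr 70 of 111 did, at 32 hr 61 of 111, and at 32 hr against 16 hr 23 of 111. Snx5, a sorting nexin gene and the host of Snord17, fell by 0.78 on the log2 scale at 16 hr (SE 0.13, edgeR adjusted p = 0.00305), from 762 to 485 CPM in 2i, while Snord17 had 0.93 ± 0.65 (edgeR adjusted p = 0.348). Rcc1, a regulator of chromosome condensation and the host of Snora73b, fell by 0.48 (SE 0.13, edgeR adjusted p = 0.0295), beside 0.43 ± 0.38 for Snora73b. Rpl13a had −0.53 ± 0.19 at 16 hr (edgeR adjusted p = 0.0698), where its Snord35a rose. Chd3 rose by 1.60 ± 0.19 at 24 hr with its Gm22442, and Prrc2a by 0.93 ± 0.30 at 32 hr with Gm23442 (edgeR adjusted p = 0.000250 and 0.0395). Rps12 had −0.65 ± 0.23 at 32 hr (edgeR adjusted p = 0.0522), beside the falls of Snora33 and Gm23130. The order of 2i at 16 and 24 hr above all other libraries held in 1 of the 79 hosts, beside 2.86% of all genes tested.

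**Figure D5:**
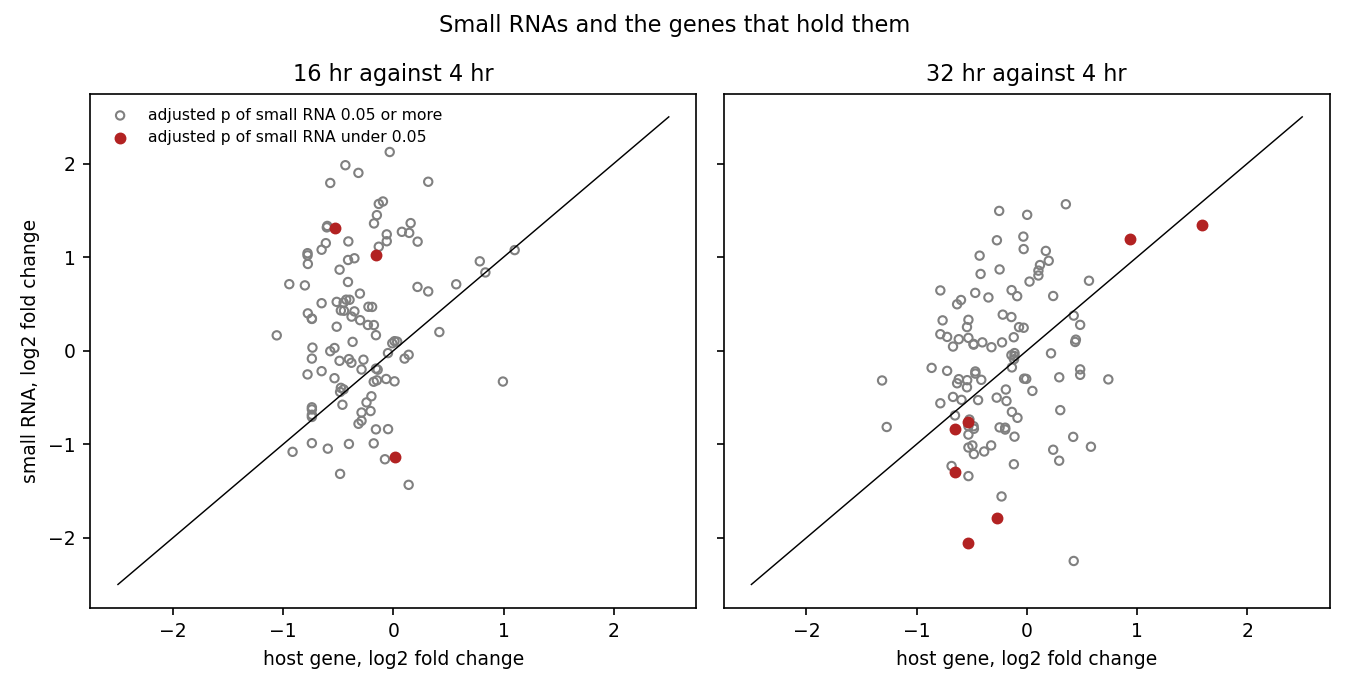
Log2 fold change of the small RNA (y axis) against that of its host gene (x axis) for 111 small RNAs with a tested host, with the line of equal change, at 16 hr (left) and 32 hr (right) against 4 hr. Small RNAs past the threshold are filled. At 16 hr 82 of the 111 points lie above the line and at 32 hr 61 do.

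The proteins that make and carry these RNAs were also measured, in lists grouped by role. The box C/D core gave 4 tested genes, of which Snu13, the protein that binds the box C/D fold, fell by 1.17 on the log2 scale at 24 hr (SE 0.28, edgeR adjusted p = 0.0116) and Nop58 by 0.48 (SE 0.15, edgeR adjusted p = 0.0431); none rose at any time. Of the 4 box H/ACA core genes, Nhp2 fell at 24 hr by 0.65 (SE 0.15, edgeR adjusted p = 0.0117), and Dkc1, which encodes the pseudouridine synthase, had −0.26 ± 0.15 (edgeR adjusted p = 0.220). Of 12 assembly factors, 1 rose and 3 fell at 24 hr, among them Znhit3 with −1.11 ± 0.16 and Tcof1 with 0.74 ± 0.21 (edgeR adjusted p = 0.000851 and 0.0279). None of 14 genes of the Cajal body and SMN complex rose and 4 fell at 24 hr, including the helicase gene Ddx20 by 0.80 (SE 0.13, edgeR adjusted p = 0.00185). Of 32 snRNP protein genes 1 rose and 5 fell, and of 24 genes for snRNA transcription and end formation 1 rose, Ints9 by 1.44 ± 0.26 (edgeR adjusted p = 0.00276), and 4 fell. At 24 hr against 4 hr, 11.5% of all genes tested rose and 8.98% fell. The medians of these 6 lists in that comparison were −0.33, −0.41, −0.32, −0.29, −0.12, and −0.15, against 0.01 over all genes tested. None of the genes in these lists passed the test of vitC, beside 0.107% of all genes that were higher and 0.0603% that were lower. Of 11 tested non-coding host genes, Snhg11 and Meg3 rose at 24 hr, by 0.67 ± 0.20 and 0.73 ± 0.19 (edgeR adjusted p = 0.0307 and 0.0164), and none fell.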

How the data were processed

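RNA from 8 libraries of E14 mouse ESCs was analysed, grouped by the labels into 4 times without or with vitC. The authors isolated total RNA with RNeasy columns, removed ribosomal RNA with Ribo-Zero Gold, made TruSeq libraries, sequenced them as 50-base single reads, mapped them with GSNAP to NCBIM37 (mm9), and deposited HTSeq read counts for each Ensembl gene, not normalized. The counting mode, its use of strand, and the annotation release are not given in the sources used here. GSNAP and HTSeq are named in the submitters' processing notes. The labels give the inhibitors in mM and the paper in µM.

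From the deposited counts, biotypes, symbols, lengths, hosts, and sequences were joined by gene identifier from GENCODE M21 (32604 of 37263 identifiers matched). A host is an annotated gene on the same strand that holds the small RNA. CPM were computed on library totals; fold changes used TMM. Genes with 1 CPM in at least 2 libraries were tested with edgeR 4.0.16 in R 4.3.3 (quasi-likelihood, Benjamini-Hochberg, threshold 0.05); log2 CPM used a prior count of 2. The scripts were tested on simulated data. The genes and lists were chosen with earlier results of these data known. Named are the 4 most abundant genes of each class (1 box C/D gene and 1 sequence are not reported here), all Rnu symbols, and, for each comparison, up to 5 rises and 5 falls that passed the threshold, averaged 5 CPM or more and went the same way without and with vitC, with hosts, and up to 3 changed genes per list. Snord118, Gm22620, Gm26457, Gm26316, Gm25541, and Dkc1, among others, were named after their values were seen. Results were recomputed with DESeq2 1.42.0, with different scalings and filters, with a length and GC correction, without the treatment or time term, and without each library; the contrast of middle with first and last times and the order of the 2i libraries were added after seeing the data. With 1 library per combination, p-values rest on no replicate cultures.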

Additional observations from a re-analysis of the deposited data

Results flagged for a closer look

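The vitC effect at 16 and 24 hr differed from that at 4 and 32 hr in 16 of the 138 small RNA genes, all with lower relative levels at 16 and 24 hr, in edgeR's quasi-likelihood test of that difference with an adjusted p under 0.05. It stood out because one contrast, vitC against 2i, gave different values at different times. Of all genes tested, 0.321% were lower and 0.355% higher in that test. DESeq2 called 12 of the 138, beside 0.643% of all genes in either direction. The contrast was chosen after the values were seen, and the calls fell to 0 without the 2i library at 32 hr, 2 without the vitC library at 32 hr, and 5 without the 2i library at 4 hr.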

How the results depend on the processing

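DESeq2 size factors, DESeq2's own test, library totals, TMM over protein-coding genes, and the removal of Lars2, Gm23935, and ENSMUSG00000093077 kept every count of genes past the threshold within 1.5 times, as did a filter of 5 CPM. Without a filter on low counts the counts were 28 at 16 hr, 25 at 24 hr, and 18 at 32 hr against 4 hr, 12 at 32 hr against 16 hr, and 19 for vitC, against 8, 11, 10, 1, and 0, while 13.6%, 15.8%, 18.5%, 2.54%, and 2.97% of all genes passed under that setting. Without the treatment term the 4 counts between times were 4, 7, 5, and 0. With the length and GC correction 2 genes passed at 32 hr against 16 hr, and without the 4 hr pair 1 passed for vitC. Leaving out 1 library at a time gave 3 to 13 genes at 16 hr, 5 to 13 at 24 hr, and 5 to 12 at 32 hr against 4 hr, 0 to 2 at 32 hr against 16 hr, 0 to 2 for vitC, 0 to 2 for its change with hours, and 0 to 19 for the middle against the first and last times. Each fit without a library had fewer residual degrees of freedom. The shares of all genes past the threshold are not given here for these fits. The same holds without the treatment term, without the 4 hr pair, and with the length and GC correction. In both tests of vitC, leaving out the 2i or the vitC library at 4 hr gave 2, and leaving out the 2i library at 32 hr gave 1 for the latter. Of the single calls between times, 28 of 268 were lost under the other settings and 71 of 240 when a library was left out, and none changed sign. Without its most abundant gene, the ratio of the 16 to the 4 hr sum in 2i was 3.17 for snRNAs, 1.33 for scaRNAs, 1.61 for box C/D, 1.77 for box H/ACA, and 2.13 for other snoRNAs, against 4.16, 1.25, 3.02, 1.89, and 1.41. The cause of these shifts was not tested. With 3 counts equal to up to 0.631 CPM, genes near 1 CPM could not be ordered in the shallowest vitC library.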
